A study of Homo sapiens with 2 samples.

Results

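Laminins are the trimeric glycoproteins of basement membranes, each built of 1 alpha, 1 beta and 1 gamma chain wound together in a coiled coil. The cell secretes a beta or gamma chain poorly unless it has first been joined to partner chains in the endoplasmic reticulum, and the alpha chain carries the globular domains that integrins and dystroglycan bind. A trimer is named by its chain numbers, so that laminin 111 holds the alpha1, beta1 and gamma1 chains. The genes described here are the 9 chain genes LAMA1, LAMA2, LAMA3, LAMA4, LAMA5, LAMB1, LAMB2, LAMB3 and LAMC1, chosen by name, out of 18417 named genes. Of the 9, 8 had a sequence that carries 1 gene symbol, and LAMA3, an alpha chain of epithelial laminins, was not analysed here.

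Cells of HT1080, a line from a human fibrosarcoma, spent 24 h on rLCC111, and for control the same line spent 24 h on bovine serum albumin (BSA). rLCC111 is a recombinant coiled coil of truncated mouse alpha1, beta1 and gamma1 chains, purified from the medium of a transfected human embryonic kidney line, without the globular ends of laminin 111. The arrays address how contact with this domain changes gene expression. There was 1 well and 1 GeneChip Human Gene 1.0 ST array per coating, so that no difference has a replicate check, no p-value is given, and the number of arrays limits the precision of every value. Values are log2 levels from RMA, a method that corrects background, normalizes and sums up the probes of a sequence, and a difference is rLCC111 minus BSA on that scale.

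The array medians were 7.12 on rLCC111 and 7.04 on BSA. To tell a transcript from background, the mean levels of 373 olfactory, taste and vomeronasal receptor genes, taken as silent in this line, were ranked, and their 95th percentile, 6.63, was set as the limit. The median difference of these sensory receptor genes was 0.00, with an SD of 0.18 across genes. Over all genes, 4.56% were higher on rLCC111 by 0.32 log2 or more, the smaller of 2 call sizes used here, and 3.68% were lower by 0.32 log2 or more. The larger size, 2-fold, was reached by 0.239% upwards and 0.0869% downwards. The higher genes made up 55.3% of those past 0.32 log2 as deposited, 53.7% after removal of a lowess trend, 40.3% after quantile normalization and 28.6% after median centring. Of 8 mesenchymal markers 6 were above the limit, with vimentin, VIM, at 12.98 on rLCC111 and 13.05 on BSA, while THY1 and S100A4 were below it. Of 8 epithelial markers 4, all keratins, were above it and EPCAM and CDH1 were below it. The counts were 3 of 8 for endothelial, 4 of 7 for blood and 3 of 6 for HEK-293 or neural markers. By the same rule, on the brighter array, 12665 of all 18417 genes were above the limit. These counts alone therefore set no cell type apart. The median differences of the 5 marker lists lay between -0.12 and 0.05. Of these 37 markers 2, both mesenchymal, were higher on rLCC111 by 0.32 log2 or more. PDGFRB, the platelet-derived growth factor receptor beta, was at 8.59 on rLCC111 and 7.25 on BSA, a difference of 1.35, and COL1A1, a collagen I chain, had 0.36. The endothelial markers ESAM and VWF, the second under the limit on both arrays, were lower by as much with differences of -0.49 and -0.36, and so was the neurofilament gene NEFL at -0.42. Their part in the differences of the laminin chains was not tested.

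The beta chains were the members that differed most between the coatings, and they differed in opposite directions. LAMB1, the beta chain of laminins 111, 411 and 511, was higher on rLCC111, and LAMB3, a beta chain of epithelial laminin, was lower. Their start regions are shown because the 2 genes went apart, and that of LAMB2 because it encodes the chain that takes the place of beta1 in laminins 121, 421 and 521. Each run holds the 250 bases before a RefSeq start site in GRCh38.p14, 5′ to 3′, and capitals mark matches on either strand to TGANTCA, the AP-1 motif, or to GGGCGG, the GC box bound by Sp1. All lie on the minus strand, LAMB1 at chr7:108003162-108003411, LAMB2 at chr3:49133051-49133300, and LAMB3 at chr1:209652426-209652675 for its outermost start and at chr1:209651375-209651624 for its innermost start. The remaining LAMB3 window overlaps the outermost and is not shown.
LAMB1: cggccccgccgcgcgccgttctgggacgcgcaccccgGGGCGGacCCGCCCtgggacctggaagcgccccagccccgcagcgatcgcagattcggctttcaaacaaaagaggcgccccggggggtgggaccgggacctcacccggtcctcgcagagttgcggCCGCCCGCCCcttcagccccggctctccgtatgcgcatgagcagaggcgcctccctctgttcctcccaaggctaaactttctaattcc
LAMB2: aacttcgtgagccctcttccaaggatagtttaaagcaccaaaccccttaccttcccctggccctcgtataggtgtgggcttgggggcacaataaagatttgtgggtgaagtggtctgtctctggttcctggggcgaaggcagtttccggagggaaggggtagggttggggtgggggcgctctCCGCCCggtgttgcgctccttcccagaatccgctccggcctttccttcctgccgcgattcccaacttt
LAMB3 outermost start: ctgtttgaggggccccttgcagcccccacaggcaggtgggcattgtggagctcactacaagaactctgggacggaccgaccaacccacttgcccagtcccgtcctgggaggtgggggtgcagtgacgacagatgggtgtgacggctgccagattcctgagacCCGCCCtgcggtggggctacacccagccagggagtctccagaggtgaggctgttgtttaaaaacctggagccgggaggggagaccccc
LAMB3 innermost start: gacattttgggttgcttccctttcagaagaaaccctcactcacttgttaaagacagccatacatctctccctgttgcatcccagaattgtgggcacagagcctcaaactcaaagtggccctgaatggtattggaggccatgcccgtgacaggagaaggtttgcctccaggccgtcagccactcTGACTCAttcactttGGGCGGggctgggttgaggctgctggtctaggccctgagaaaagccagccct

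The LAMB1 window held 4 matches to GGGCGG, of which 2 overlap each other, and none to TGANTCA. The innermost LAMB3 window held 1 match to TGANTCA, which begins 67 bases before the start, and 1 to GGGCGG. The LAMA3 window, of the chain not measured here, held 2 matches to TGANTCA and 1 to GGGCGG, and these 2 were the only ones with TGANTCA among the 10 windows found for the chain genes. The LAMB2 window and the outermost LAMB3 window each held 1 match to GGGCGG. Of 35114 RefSeq start windows of the same length, 42.6% held GGGCGG and 6.57% held TGANTCA. The TATA box motif TATAAA was searched too and was in none of the 10 windows of the 8 chain genes that matched, against 10.7% of all windows, and CAGAC, the SMAD motif, was in the windows of LAMA3, LAMA4, LAMB2 and LAMC1, against 38% of all windows. The base composition also set the chains apart, with 28 CpG dinucleotides in the LAMB1 window, 12 in that of LAMB2, 8 and 3 in the outermost and innermost windows of LAMB3, and a median of 11 over all windows. The LAMA5 and LAMC1 windows held 32 CpG each, whereas those of LAMA4, with 5, and LAMA2, with 9, held no match to GGGCGG. A match describes these letters only, and the motifs were chosen with the array values known.

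LAMB1 stood at a log2 level of 11.70 on rLCC111, against 11.13 on BSA. The difference of 0.57, a fold of 1.48, was the largest upward one among the 8 measured chains. Of the 12665 genes whose brighter array was above the limit, 186 (1.47%) were higher by as much or more, and so were 10 of the 373 sensory receptor genes. LAMB2 stood at 9.63 on rLCC111 and 9.32 on BSA, a difference of 0.31 and a fold of 1.24, just short of 0.32. A difference of this size or more was found in 5.97% of the genes above the limit.

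LAMB3 went the other way, at 11.02 on rLCC111 and 11.62 on BSA. Its difference was -0.60, a fold of 0.662, and 89 of the 12665 genes above the limit (0.703%) were lower by as much or more. No sensory receptor gene was as much lower, the lowest of them standing at -0.31. These genes were one-sided, however, with a highest difference of 1.53. By the smaller call size, 16 of the 373 were higher and 0 lower. Their empty lower side therefore cannot show how unusual the LAMB3 difference is. LAMB3 remained far above the limit on both arrays. The fourth beta gene, LAMB4, which is no member of the list, was below the limit at 5.30 on each array.

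**Figure D1:**
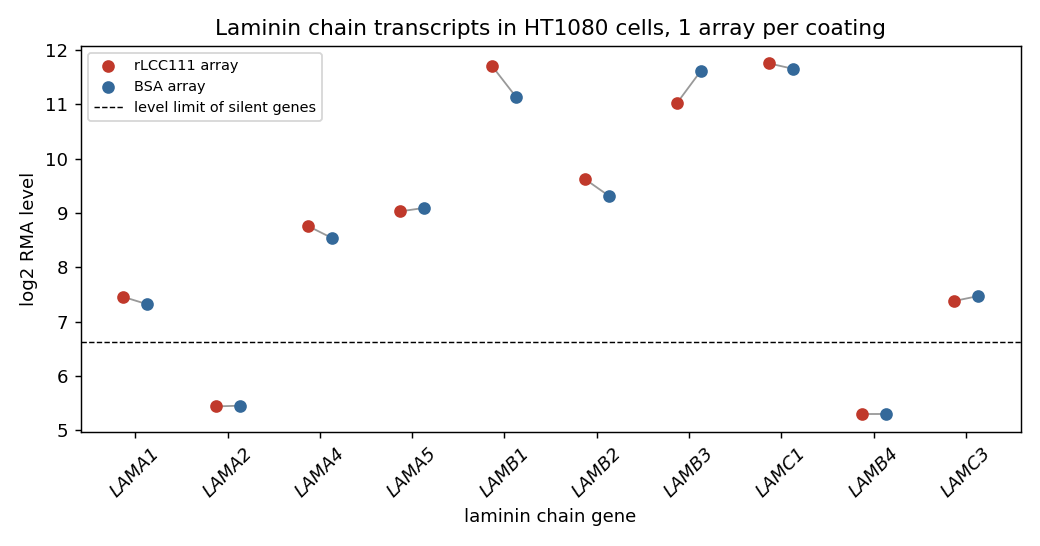
Log2 RMA level (vertical) of 8 laminin chain genes and of LAMB4 and LAMC3 (horizontal), with the rLCC111 array in red on the left and the BSA array in blue on the right of each gene; there is 1 array per coating and no error bar. The dashed line is the limit of 6.63; LAMB1 is higher on rLCC111, LAMB3 is lower, and LAMA2 and LAMB4 lie under the line on both arrays. Heights of different genes come from different probes and are not compared.

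Because every difference is taken within 1 gene, the differences of 2 genes can be set against each other without comparing their probes. LAMB1 relative to LAMB3 was 1.17 log2 higher on rLCC111 than on BSA, a 2.24-fold change of this ratio. LAMB2 relative to LAMB3 was 0.91 higher, and LAMB1 relative to LAMB2 0.26 higher. None of these shifts has a replicate check.

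LAMC1, which encodes the gamma1 chain found in most laminins, was at 11.75 on rLCC111 and 11.65 on BSA, a difference of 0.10. Among the genes above the limit, 24.4% were higher by as much or more. LAMB1 relative to LAMC1, its partner in laminins 111, 411 and 511, was 0.47 higher on rLCC111, and LAMB3 relative to LAMC1 shifted by -0.69. LAMC3, the gene of the gamma3 chain, was at 7.38 on rLCC111 and 7.47 on BSA.

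The alpha chains differed little between the coatings, and no alpha gene reached 0.32 log2 in size. LAMA4, the short-armed alpha chain of vessel and mesenchymal laminins, was at 8.76 on rLCC111 and 8.54 on BSA, a difference of 0.22, which 10.3% of the genes above the limit reached or passed. LAMA1, whose mouse counterpart supplied the alpha1 part of the coating, was at 7.46 on rLCC111 and 7.32 on BSA, a difference of 0.14. LAMA5, the most widespread alpha chain of adult basement membranes, was at 9.03 on rLCC111 and 9.09 on BSA, a difference of -0.06. LAMA2, the alpha chain of muscle and nerve laminins, was under the limit on both arrays, at 5.44 on rLCC111 and 5.45 on BSA. LAMA4 relative to LAMA5 was 0.29 higher on rLCC111.

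Of the 8 measured chains, 5 had a difference above 0 and 3 below 0. Only LAMB1 was higher by 0.32 log2 or more and only LAMB3 lower by as much, against 4.56% and 3.68% of all genes, and none was 2-fold different in either direction. Among the 12665 genes above the limit, which hold 7 of the 8 chains, 5.53% were higher and 4.56% lower by 0.32 log2 or more, and 0.324% and 0.126% were 2-fold higher and 2-fold lower. The median difference of the 8 chains was 0.12, against 0.00 over all genes and over the sensory receptor genes. With 8 genes, a count of 1 in each direction gives the family no share that can be set apart from the background.

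**Figure D2:**
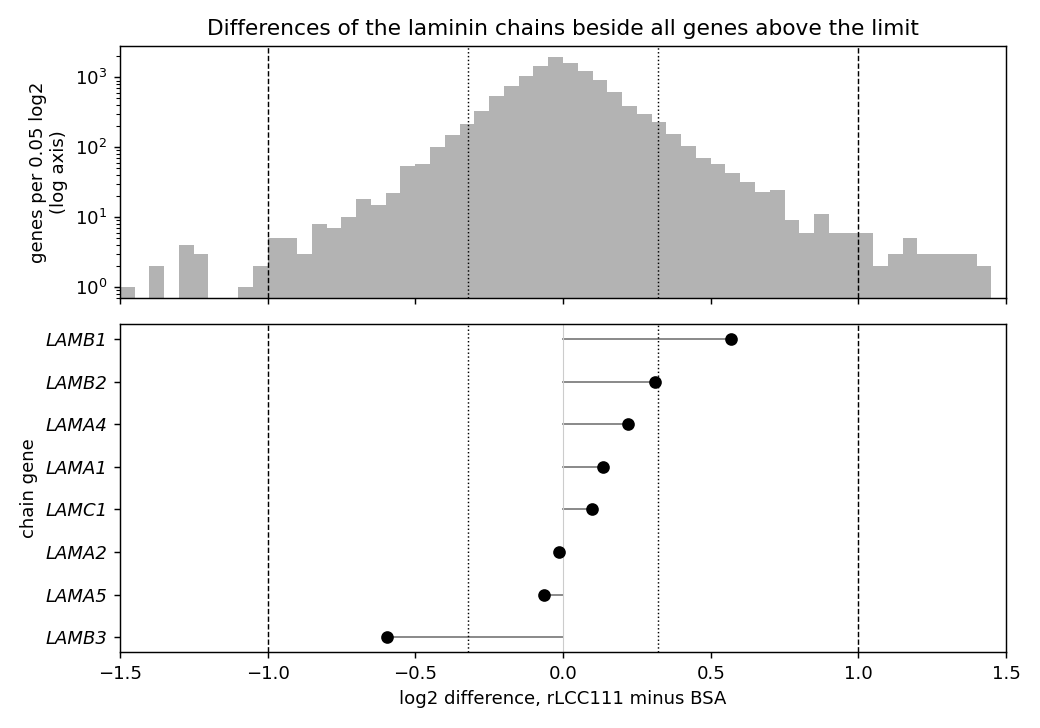
Top, number of genes above the limit per 0.05 log2 of difference, rLCC111 minus BSA, on a log axis; the few genes beyond the axis range are not drawn; bottom, the difference of each measured laminin chain gene (point) with a line to 0. Dotted lines mark 0.32 log2 and dashed lines 2-fold; LAMB1 at 0.57 and LAMB3 at -0.60 lie outside the dotted lines, LAMB2 at 0.31 just inside, and no chain reaches a dashed line.

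To relate the chains to the trimers that HT1080 cells could assemble, 13 known chain combinations were checked for transcripts above the limit. A transcript above the limit is neither a protein nor a secreted trimer, and no protein was measured here. The limit is also lenient, passed on both arrays by 12291 of all 18417 genes. Of the 11 combinations with every chain measured, 8 had all their chains above the limit, on rLCC111 and on BSA alike. These were laminins 111, 121, 411, 421, 423, 511, 521 and 523. The other 3, laminins 211, 221 and 213, lacked LAMA2 above the limit on either array. The coatings therefore did not differ in which of these combinations had all chains above the limit.

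Of the chains that carry this count, 2 were dim. LAMA1 and LAMC3 lay above the 95th percentile of the sensory receptor genes but under their 99th, which is 7.59. With that stricter limit the count was 4, laminins 411, 421, 511 and 521, each with LAMA4 or LAMA5, LAMB1 or LAMB2, and LAMC1. In these 4 combinations the beta chain had the largest difference of the 3 chains, at 0.57 or 0.31, the gamma chain stood at 0.10, and the alpha chain at 0.22 or -0.06. For laminins 311 and 321 the beta and gamma chains were above the limit with the alpha chain not analysed here.

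**Figure D3:**
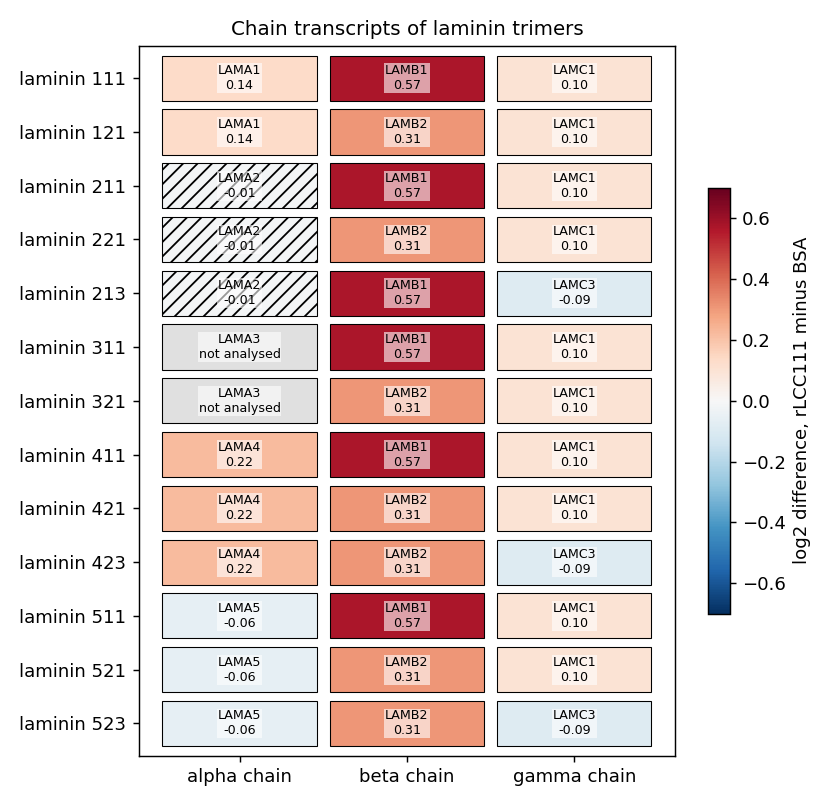
Log2 difference, rLCC111 minus BSA, of the alpha, beta and gamma chain genes (columns) of 13 laminin trimers (rows), coloured from blue (lower on rLCC111) to red (higher). Hatched cells are chains under the limit on both arrays and grey cells were not analysed; the red column of beta chains holds LAMB1 at 0.57 and LAMB2 at 0.31, and the hatched cells are LAMA2.

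Laminin networks are tied to collagen IV through nidogens and heparan sulphate proteoglycans. Of 16 such partners 4 were higher on rLCC111 by 0.32 log2 or more and none was lower by as much, against 4.56% and 3.68% of all genes, and their median difference was 0.08. After median centring of the arrays the counts were 2 higher, COL4A1 and COL4A2, and 1 lower, TINAGL1, a secreted basement membrane protein. Over all 18417 genes the same centring gave 512 higher and 1279 lower. The paired collagen IV genes COL4A1 and COL4A2 were at 10.95 and 11.02 on rLCC111, against 9.99 and 10.36 on BSA, differences of 0.96 and 0.66. PXDN, the peroxidase that crosslinks collagen IV, had a difference of 0.37, and HSPG2, which encodes perlecan, 0.33. NID1, the nidogen that binds the gamma1 chain, was at 10.83 on rLCC111 and 10.78 on BSA, a difference of 0.05. AGRN, which encodes agrin, a proteoglycan that binds the laminin coiled coil, had a difference of 0.21. LAMB1 relative to COL4A1 shifted by -0.39 on rLCC111, since the collagen gene differed more.

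Among 9 measured laminin receptors SDC2, a syndecan that carries heparan sulphate, was at 9.26 on rLCC111 and 8.30 on BSA. With a difference of 0.96 it was the only member past 0.32. Over all genes, 4.56% were higher by 0.32 log2 or more and 3.68% lower by as much. A count of 1 among 9 genes cannot be set apart from these shares. ITGA6, the integrin chain that pairs with beta1 or beta4 to bind laminins, was at 11.95 on rLCC111 and 12.26 on BSA, a difference of -0.31, just short of the smaller call size as deposited and past it at -0.39 after median centring. ITGA3, a chain of another laminin-binding integrin, was at 12.60 on rLCC111 and 12.50 on BSA. ITGB1, the beta chain common to most laminin-binding integrins, had a difference of 0.10 and ITGA2, a collagen and laminin receptor chain, 0.21. ITGB4 was just above the limit, at 6.66 on rLCC111 and 6.69 on BSA, and ITGA7 was under it on both arrays. BCAM, a receptor for the alpha5 chain, was at 7.03 on rLCC111 and 7.04 on BSA, and SDC1 had a difference of 0.19. The receptor median was 0.10.

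The hemidesmosome, which holds epithelial cells to the basement membrane, was represented by 6 genes with a median of 0.01. DST, which encodes the plakin BPAG1, had a difference of 0.33, which passed 0.32 as deposited but was 0.25 after median centring, PLEC, which encodes plectin, had 0.31, and CD151, a tetraspanin partner of laminin-binding integrins, -0.07. Among 9 enzymes that build the laminin-binding glycan of dystroglycan, POMT2, an O-mannosyltransferase, was at 10.36 on rLCC111 and 9.83 on BSA, a difference of 0.53, and none was lower by 0.32 or more (median 0.09). None of 6 netrins, which share the N-terminal laminin domain, differed by 0.32 or more in either direction. Their largest difference was 0.24 for NTNG2. Over all genes, 4.56% were higher by 0.32 log2 or more and 3.68% lower by as much. The single calls in the hemidesmosome and dystroglycan lists cannot be set apart from these shares.

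Of 14 proteases that cut laminin or activate plasminogen, 3 were higher on rLCC111 by 0.32 log2 or more and 2 lower by as much. The shares of all genes were 4.56% and 3.68%, and the median difference of the 14 was 0.09. Median centring left MMP2 as the 1 higher gene and gave 3 lower ones, MMP3, PLAT and the cathepsin gene CTSS. Over all 18417 genes the same centring gave 512 higher and 1279 lower. MMP2, gelatinase A, was at 12.08 on rLCC111 and 10.75 on BSA and was the 1 gene of these lists at least 2-fold different. BMP1, the procollagen C-proteinase, had a difference of 0.35 on the sequence with the higher mean level of its 2. With the mean over these 2 sequences it fell short of 0.32. PLAT, the tissue plasminogen activator, had a difference of -0.42, a fold of 0.745. MMP7 and MMP3, the other genes past 0.32 as deposited, were under the limit on both arrays, with differences of 0.39 and -0.56. CTSS, called only after rescaling, was under the limit on both arrays too. In all, 8 of the 14 proteases were under it on both arrays, so part of these counts rests on dim genes. Over all the pathway lists, 10 of 60 measured genes were higher by 0.32 log2 or more and 2 lower by as much, against 4.56% and 3.68% of all genes. The split turned on the scaling. It was 10 higher and 3 lower after removal of a lowess trend, against 808 and 698 of all 18417 genes. After quantile normalization it was 8 and 4, against 643 and 953, and after median centring 5 and 5, against 512 and 1279.

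**Figure D4:**
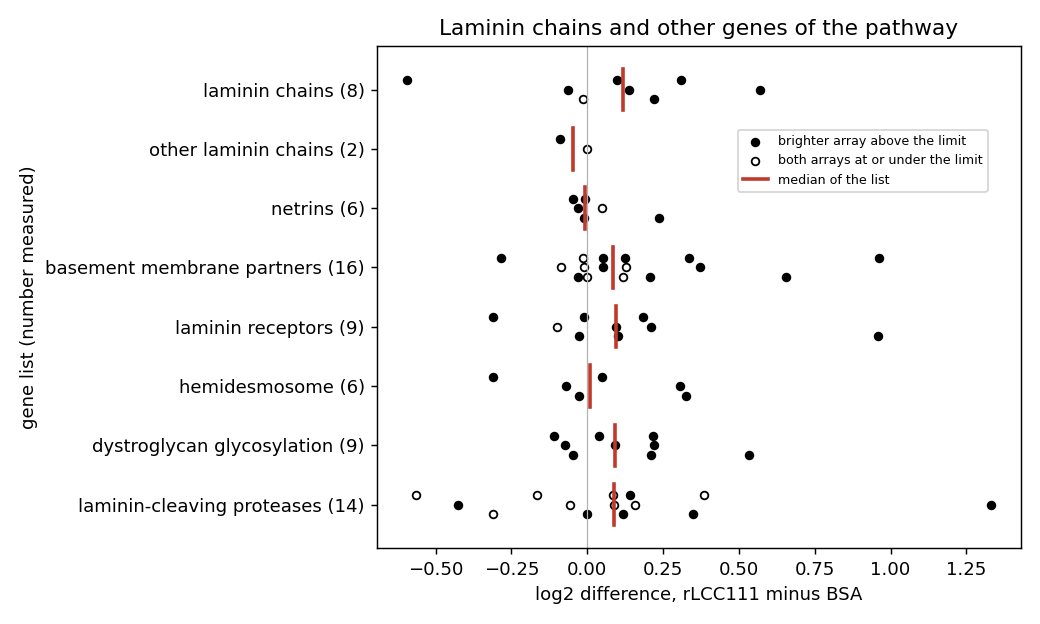
Log2 difference, rLCC111 minus BSA (horizontal), of each measured gene in 8 lists (rows, number measured in brackets); filled points have a brighter array above the limit, open points do not, red bars are list medians, and vertical offsets within a row only separate points. The laminin chains run from LAMB3 at -0.60 to LAMB1 at 0.57 with a median of 0.12, and MMP2 is the point farthest to the right. ITGA6 and ITGB4 stand in 2 rows.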

How the data were processed

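HT1080 cells on rLCC111 and on BSA were measured with 1 array each. The authors ran RMA in Affymetrix Expression Console on the scans, and the deposited log2 levels were taken as they stand. Settings, software version and genome build are not given in the sources used here. Of 33297 sequences, 19460 carry 1 symbol in the platform's annotation, 1754 several and 12083 none; only those with 1 symbol were used, with symbols looked up by gene identifier in the RefSeq table of GRCh38.p14. Where a gene had several sequences, that with the highest mean of both arrays was used. The methods name limma, but 1 array per coating leaves no residual degree of freedom, so no test was run. Calls are differences of at least 0.32 log2 or 2-fold. Named genes are the chains, and in the other lists direct laminin receptors and partners and up to 3 genes each way past 0.32 log2 above the limit; genes just short of it, dim genes past it, NTNG2, CD151 and the marker genes were named after their values were seen. The members and lists were chosen with earlier results of these data known. The arrays were also centred on their medians, freed of a lowess trend (a span of 0.2 with 3 iterations) or quantile normalized, and other choices were the mean over sequences, filters on the limit, and limits at percentiles 90 and 99. The counting was tested on simulated data. Promoter windows come from RefSeq, GRCh38.p14; 8 of the 9 chain genes matched. Calculations used Python 3.11.15, numpy 2.4.6, pandas 2.3.3, statsmodels 0.14.6 and matplotlib 3.10.9.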

Additional observations from a re-analysis of the deposited data

How the results depend on the processing

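Under median centring, lowess and quantile normalization every measured chain kept the sign of its difference. That of LAMB1 ran from 0.49 to 0.62, LAMB3 from -0.67 to -0.55, LAMB2 from 0.23 to 0.32 and LAMC1 from 0.02 to 0.14, and LAMB1 and LAMB3 were the 2 chains past 0.32 log2 in each case. The chain median ran from 0.04 after median centring to 0.14 over the 7 chains above the limit. The hemidesmosome median was -0.07 after median centring, -0.04 after quantile normalization and -0.01 after lowess, against 0.01 as deposited. Trimers with every chain above the limit numbered 4 in place of 8 with the limit at percentile 99, since LAMA1 and LAMC3 then lay under it. Over all genes, median centring gave 512 genes higher by 0.32 log2 or more and 1279 lower, against 840 and 678 as deposited, and 25 genes 2-fold lower against 16; it lowers every difference by 0.08. Of 102 recomputed values 4 moved beyond the SD of the sensory receptor genes, or beyond 1.5 times for counts, and no value past 0.32 log2 changed sign, whereas the small hemidesmosome median did. No paired analysis was possible because each coating has 1 array, and no array can be left out.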

Other observations

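Of the 18417 genes, 1325 (7.19%) had the same deposited level on both arrays to the last digit. They made up 15.9% of the genes whose mean level was at or under the limit and 3.04% of those above it, and 76 of the 373 sensory receptor genes were among them. No laminin chain was among them. Why the values coincide was not tested.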
